A study of Mus musculus and Rattus norvegicus with 12 samples.

Results

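Thyroid hormone handling in the heart was examined through 8 genes, read as counts in hearts of Jmjd4 cKO mice and in cultured rat heart cells given an siRNA against it. The set holds the deiodinases Dio1, Dio2 and Dio3, the nuclear receptors Thra and Thrb, the transporter Slc16a10, the T3-binding protein Crym and the T3-responsive gene Thrsp. It was chosen by the higher level of Dio2 in cKO hearts, so the heart values of these genes are a description and carry no test. All 8 were among the 54087 symbols of the mouse table and 7 were among the 28909 of the rat table, where Dio2 was not analysed here. After the filter on low counts 7 remained in the mouse, without Dio1, and 5 in the rat, without Dio1 and Thrsp.

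Thyroid hormone reaches the heart mainly as thyroxine (T4), which has little activity at the receptors, and as triiodothyronine (T3), which binds them. Dio2 removes an outer-ring iodine from T4 and makes T3 inside the cell, Dio3 removes an inner-ring iodine and inactivates T4 and T3, and Dio1, mainly an enzyme of liver and kidney, can do both. T3 enters through membrane carriers and acts through the receptors encoded by Thra, the main form in heart muscle, and Thrb. In rodent hearts T3 is known to favour the fast myosin Myh6 and the calcium pump Atp2a2, and to lower the slow myosin Myh7 and the pump inhibitor Pln.

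The 12 libraries formed 4 groups of 3. The cKO mice carried floxed Jmjd4 on both alleles and a Cre transgene labelled MCM under the Myh6 promoter, which is active in cardiomyocytes. The flox mice carried the same floxed alleles without Cre. Both received tamoxifen, and heart apex was taken 14 days later. The labels state no strain, age or sex for the mice. Only cKO mice carried Cre, so effects of Cre itself and of the deletion cannot be told apart. NRVCs, ventricular cells of 1-day-old Sprague-Dawley rats, were given si-Jmjd4 or the control si-NC for 48 h. These groups are called siJmjd4 and siNC, and the labels do not say whether their replicates were separate cell isolations.

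The tables held between 57174654 and 82187009 counts per library. Jmjd4 had 8.95, 4.92 and 9.63 CPM (counts scaled to a common library size) in cKO hearts, against 19.0, 8.04 and 16.9 CPM in flox hearts, and the ranges overlapped (log2 fold change −0.90 ± 0.44 SE, edgeR adjusted p = 0.397). Which exons were deleted is not given, so counts outside them may remain. In NRVCs Jmjd4 had 3.58, 3.43 and 3.53 CPM in the libraries labelled siJmjd4, against 3.46, 4.40 and 0.982 CPM in siNC (log2 fold change 0.25, edgeR adjusted p = 0.770). Without siNC replicate 3 it was −0.16 (edgeR adjusted p = 0.685), so the direction rested on that library and neither value passed the test. Flox replicate 3 stood apart: mitochondrial genes held 41.7% of its total, while the other heart libraries had 14.2% to 24.1%, and 1485 tested genes were at 0 in it, against 125 to 503. The ratio of a library to its own group mean correlated with transcript length across genes, at a Spearman rho of −0.66 in flox replicate 3 and −0.59 in cKO replicate 2, against 0.33 to 0.63 in the other heart libraries. In siNC replicate 3, 461 tested genes were at 0, against 78 to 137 in the other NRVC libraries. The same rho with transcript length was −0.49 in siNC replicate 3 and −0.39 in siJmjd4 replicate 1, against 0.05 to 0.50 in the other NRVC libraries. Values are therefore also given without these 2 control libraries. Cardiomyocyte markers were present in every library, but both sample types, labelled as cardiomyocytes, also held RNA of other cells. Endothelial markers summed to 585 to 698 CPM in cKO hearts and 287 to 936 CPM in flox hearts, and fibroblast markers to 29800 to 35400 CPM in the libraries labelled siJmjd4 and 29400 to 31700 CPM in siNC.

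Dio2, on mouse chromosome 12 (GRCm38, 90724552 to 90738438, minus strand), has 1 annotated transcript of 5815 bases. The 250 bases before its RefSeq start, chr12:90739039-90739288 on the minus strand of GRCm38.p6, are shown because Dio2 had the highest fold change of the set and is a known cAMP-responsive gene in brown fat. Capitals mark the cAMP response element (CRE) TGACGTCA, a palindrome whose first base lies 95 bases before the start, and the TATA box TATAAA at 30 bases before it.

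Dio2: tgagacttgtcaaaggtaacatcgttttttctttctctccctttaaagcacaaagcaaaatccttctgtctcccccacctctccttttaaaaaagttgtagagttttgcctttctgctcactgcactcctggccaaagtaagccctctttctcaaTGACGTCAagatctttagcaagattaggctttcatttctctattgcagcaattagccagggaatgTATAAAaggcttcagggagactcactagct

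Of 32851 mouse promoters of the same length in the RefSeq table, 1.55% held TGACGTCA on either strand and 12.4% held TATAAA or its reverse complement. Among the 6 of the 8 genes with an entry in that table, TGACGTCA was found for Dio2 alone. TATAAA was also present 31 bases before the start of Dio3 and 167 bases before 1 of the 2 starts listed for Thrb. The receptor-binding hexamer AGGTCA, or its reverse complement TGACCT, was in 14.0% of all promoters and in the other Thrb promoter, at 184 bases, but not in the Dio2 window. GENCODE places the start of Dio2 further downstream. The window and the first 238 bases of the GENCODE gene lie within the span of the lncRNA Gm26512 on the opposite strand, which was not analysed here. No source used here states whether counting used strand.

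Dio2 had 45.8, 30.1 and 46.7 CPM in cKO hearts, against 1.99, 2.18 and 1.02 CPM in flox hearts. The lowest cKO library stood far above the highest flox library, and within each group the 3 values lay close together by comparison. The means were 40.9 ± 9.31 CPM in cKO hearts and 1.73 ± 0.623 CPM in flox hearts (SD, n = 3 each). The log2 fold change was 4.55 ± 0.44 (SE), or 23.5-fold, and 4.30 ± 0.30 (19.6-fold) without flox replicate 3. It stayed between 4.26 and 5.01 over 13 settings of scaling, filter, test and libraries. The depth behind these values was 4363, 2369 and 4175 counts in cKO hearts and 156, 168 and 36 counts in flox hearts. The summed level of 6 fibroblast markers was also higher, at 1560 to 2920 CPM in cKO hearts against 704 to 776 CPM in flox hearts. Of these markers 5 had each cKO library above each flox library, none was at 0 in all libraries and none was called by edgeR. Over all 18094 tested genes, 14.9% lay fully above in this way and 11.2% fully below. Macrophage markers summed to 545 to 798 CPM in cKO hearts against 284 to 536 CPM in flox hearts, with 3 of 5 fully above. Mesothelial markers summed to 53.1 to 101 CPM in cKO hearts against 31.2 to 35.4 CPM in flox hearts, with 2 of 4 fully above. Skeletal muscle markers summed to 15.5 to 26.6 CPM in cKO hearts against 2.86 to 7.54 CPM in flox hearts, with 2 of 6 fully above and Myh4 at 0. Nearly all of this difference was Tnnt3, at 13.1, 23.3 and 13.8 CPM in cKO hearts against 0.369, 0.376 and 1.47 CPM in flox hearts. Myh1, also fully above, was at 0.126 to 0.331 CPM in cKO hearts, and Actn3, Tnni2 and Mybpc1 overlapped. The atrial list, nearly all of it Nppa, a natriuretic peptide gene, summed to 6040 to 16500 CPM in cKO hearts against 95 to 184 CPM in flox hearts, with Bmp10 at 0. In it 2 of 5 were fully above and 1 was called higher by edgeR, beside 0.37% of all tested genes. Lymphocyte markers summed to 2.96 to 3.5 CPM in cKO hearts against 0.988 to 1.87 CPM in flox hearts. Of the 5, 3 were fully above and 1 fully below. Smooth muscle and pericyte sums overlapped, with 1 marker called higher by edgeR. The part of these in the Dio2 values was not tested. In bulk tissue, fewer cells of a type and less RNA per cell cannot be told apart.

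Dio3, the enzyme that inactivates T4 and T3, is known to reappear in rodent hearts under overload or after infarction. On chromosome 12 (110279068 to 110281097, plus strand), it had 0.567, 0.903 and 1.69 CPM in cKO hearts, from 54, 71 and 151 counts. Flox hearts had 0.115 and 0.0389 CPM in replicates 1 and 2, from 9 and 3 counts, and 0 counts in replicate 3, which allows a level of up to 0.0847 CPM. Each cKO library was above each flox library, at a much lower level than Dio2. Its log2 fold change was 4.19 ± 1.03 (18.2-fold), and 3.75 (13.4-fold) without flox replicate 3. Since it rests on 12 flox counts in all, its size is uncertain, and it ranged between 3.70 and 5.38 over the 13 settings.

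Dio1, on chromosome 4 (107291465 to 107307169, minus strand), was at or near the detection limit. It had 0 counts in the 3 cKO hearts, which allows up to 0.0315 to 0.0381 CPM, against 5 counts (0.0649 CPM) in flox replicate 2 and 0 in flox replicates 1 and 3. No difference was detectable at this depth. Relative to Dio2, Dio3 had 1.24, 3.00 and 3.62 counts per 100 Dio2 counts in cKO hearts, against 5.77, 1.79 and 0 in flox hearts, so the ranges of this ratio overlapped.

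**Figure D1:**
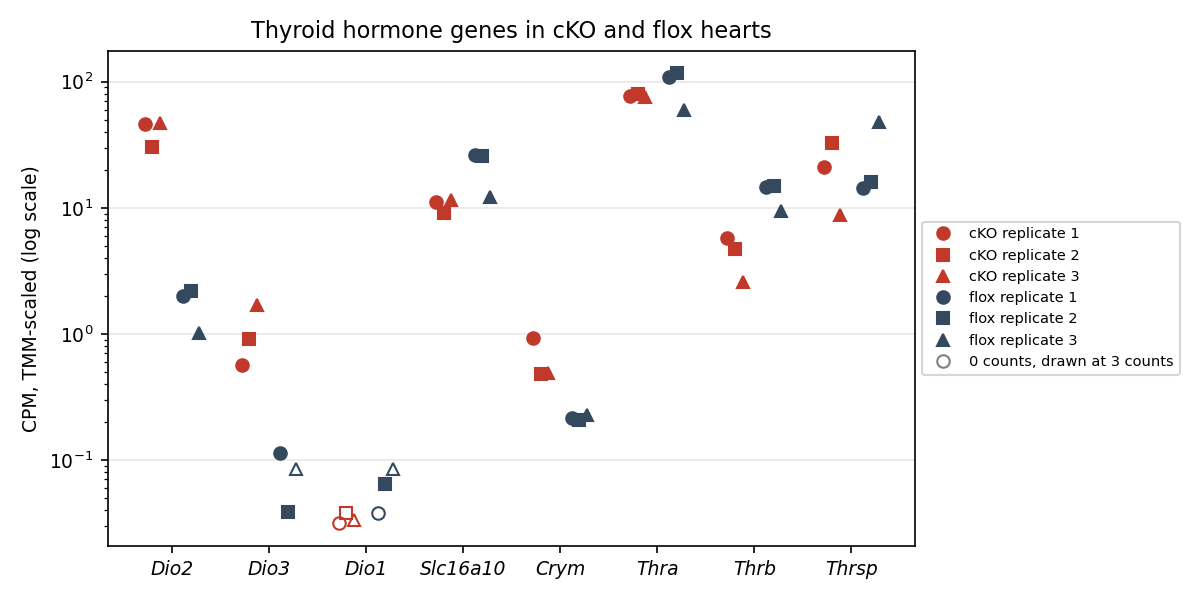
CPM (TMM-scaled, log scale) of the 8 thyroid hormone genes in each cKO and flox heart library; each symbol is 1 library, and open symbols are libraries with 0 counts drawn at the level of 3 counts. Dio2, Dio3 and Crym lie higher in the 3 cKO libraries, Thrb and Slc16a10 lie lower, and Thra and Thrsp overlap.

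Slc16a10, on chromosome 10 (40033532 to 40142258, minus strand), carries aromatic amino acids and T3 and T4. It had 11.1, 9.17 and 11.4 CPM in cKO hearts, against 26.4, 25.9 and 12.3 CPM in flox hearts. Each cKO library was below each flox library, but flox replicate 3 lay close to the cKO range. On the log2 scale the difference was −1.03 ± 0.37, or 2.04-fold lower, and −1.31 without that replicate. Crym, on chromosome 7 (120186380 to 120202111, minus strand), encodes a protein that binds T3 in the cytosol. It was expressed at a low level, with 0.934, 0.483 and 0.492 CPM in cKO hearts, against 0.216, 0.208 and 0.226 CPM in flox hearts. The flox values were nearly equal and all below the cKO values, and cKO replicate 1 was the highest. Its log2 fold change was 1.55 ± 0.61 (2.93-fold), with 171 counts in all in cKO hearts and 41 in flox hearts. It was 1.17 without cKO replicate 1.

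Thra, on chromosome 11 (98740638 to 98769006, plus strand), had 77.2, 79.6 and 76.1 CPM in cKO hearts, against 108, 117 and 59.7 CPM in flox hearts. The cKO values lay between flox replicate 3 and the other flox libraries, so the groups overlapped. The log2 fold change was −0.29 ± 0.35, and −0.53 ± 0.19 without flox replicate 3, when the groups no longer overlapped, but 0.15 when libraries were scaled by total counts alone. That scaling moved the median of all tested genes to 0.54 on the log2 scale. Thra shares 1075 bases with Nr1d1, the clock repressor on the opposite strand, which had 50.5 ± 9.36 CPM in cKO hearts and 76.9 ± 39.4 CPM in flox hearts (SD, n = 3 each). Without a stated strand setting, reads of the shared bases cannot be assigned to either gene.

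Thrb, on chromosome 14 (17660261 to 18038090, plus strand), had 5.76, 4.70 and 2.56 CPM in cKO hearts, against 14.7, 14.8 and 9.35 CPM in flox hearts. All 3 cKO libraries were below the flox libraries. This was a log2 fold change of −1.58 ± 0.40 (2.98-fold lower) and −1.76 without flox replicate 3. The ratio of the receptors within a library does not depend on scaling between libraries. There were 7.46, 5.91 and 3.37 Thrb counts per 100 Thra counts in cKO hearts, against 13.6, 12.7 and 15.7 in flox hearts. Flox replicate 3, which stood apart in many measures, was near the other flox libraries in this ratio.

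The same held for Dio2 against Thra. Dio2 had 59.3, 37.9 and 61.4 counts per 100 Thra counts in cKO hearts, against 1.83, 1.87 and 1.70 in flox hearts. The flox values spanned a narrow range, flox replicate 3 included.

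**Figure D2:**
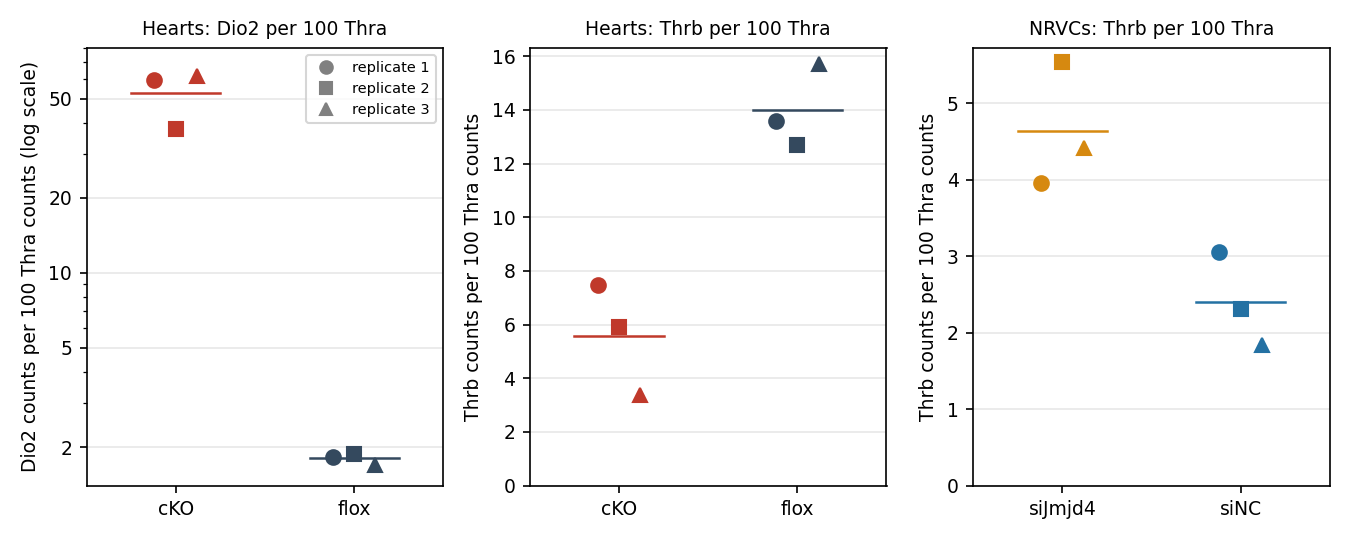
Counts of a gene per 100 counts of Thra in the same library, for Dio2 in hearts (log scale), Thrb in hearts and Thrb in NRVCs; symbols are libraries and lines are group means of 3. Dio2 lies between 37.9 and 61.4 in cKO hearts and between 1.70 and 1.87 in flox hearts, and Thrb against Thra is lower in cKO than in flox hearts and higher in siJmjd4 than in siNC libraries.

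Thrsp, on chromosome 7 (97412938 to 97417730, minus strand), is known as a T3-responsive gene of lipid synthesis in liver and fat. It had 21.1, 32.7 and 8.72 CPM in cKO hearts, against 14.3, 16.1 and 47.8 CPM in flox hearts. The groups overlapped and the highest value was that of flox replicate 3. On the log2 scale the fold change was −0.32 ± 0.65 with all libraries and 0.46 ± 0.50 without that replicate, so its direction depended on 1 library. Of 8 adipocyte markers, Plin1, Lep and Retn were at 0 in all 6 heart libraries. Ucp1 was at 0 in the cKO hearts and at 0.113 CPM in flox replicate 3. Nearly all of the list's summed level was Cidea, a lipid droplet protein, with 22.2, 39.9 and 24.3 CPM in cKO hearts, against 19.6, 22.2 and 91.5 CPM in flox hearts. Cidea was thus highest in the library with the highest Thrsp, and its part in the Thrsp values was not tested. Ndufc2, a complex I subunit gene near Thrsp that shares no bases with it in GENCODE M21, was looked up after its values were seen. It had 51.1, 105 and 48.0 CPM in cKO hearts, against 84.4, 83.9 and 497 CPM in flox hearts, also highest in flox replicate 3.

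Of the 7 genes past the filter in hearts, 3 had each cKO library above each flox library and 2 had each below. Over all 18094 tested genes these shares were 14.9% and 11.2%. The choice of the genes used this contrast, so nothing is read from the comparison. Without flox replicate 3 the counts were 3 above and 3 below, the third below being Thra.

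Levels of different genes were compared as CPM per kb of the longest annotated transcript. In flox hearts Thra was highest at 38.7 ± 12.5 CPM per kb, followed by Thrsp at 18.6 ± 13.5, Slc16a10 at 3.99 ± 1.49 and Thrb at 2.09 ± 0.503 (SD, n = 3). Dio2 came next at 0.297 ± 0.107, then Crym at 0.0808 ± 0.00342, Dio3 at 0.0252 ± 0.0287 and Dio1 at 0.0128 ± 0.0222 CPM per kb. The ranges of Thra and Thrsp, of Slc16a10 and Thrb, and of Dio3 and Dio1 overlapped. Within libraries, the order of Thra and Thrsp and that of Dio3 and Dio1 was not the same throughout. Slc16a10 was above Thrb in each flox library, at 4.9 against 2.4, 4.8 against 2.4 and 2.3 against 1.5 CPM per kb. In cKO hearts Dio2 stood at 7.03 ± 1.60 CPM per kb, rank 3 of 8 against rank 5 in flox hearts, below Thra at 31.7 and overlapping the range of Thrsp at 14.9 ± 8.56. It was above Slc16a10 at 1.96 and Thrb at 0.700 CPM per kb, with no overlap with Slc16a10. Dio3, at 0.518 CPM per kb, overlapped Thrb and Crym, and Dio1 was at 0.

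The genes whose pattern over the 6 heart libraries was most like that of Dio2 were ranked by the mean absolute difference in log2(CPM + 0.5), each centred on its flox mean, among 12188 genes of at least 1 CPM on average. Among the closest were Itgbl1, an integrin beta-like secreted protein, at a difference of 0.16, and Egr2, an immediate-early transcription factor, at 0.17. They were followed by the BMP-family ligand Gdf6 at 0.23, the secreted protease inhibitor Serpina3n at 0.27 and the matricellular protein Ctgf at 0.30. The median over all ranked genes was 2.29. Because genes were centred on their flox means, the score mostly measures how near a gene's cKO-flox difference is to that of Dio2. That difference was used to choose the set, so the ranks largely restate fold changes and nothing more is read from them. Egr2 and Gdf6 had flox means of 0.257 and 0.514 CPM, so the offset of 0.5 drew their differences between groups towards 0. In the fit over all genes their log2 fold changes were 5.45 and 5.46, larger than the 4.55 of Dio2. Ctgf had 1087 ± 179 CPM in cKO hearts and 46.5 ± 13.9 CPM in flox hearts, and Itgbl1 had 127 ± 27.6 CPM in cKO hearts and 7.25 ± 1.44 CPM in flox hearts (SD, n = 3 each). Dio3 and Crym were below 1 CPM on average and were not ranked. Of the 4 other thyroid hormone genes ranked, Thra was nearest, at rank 5764 with a difference of 2.26, and Thrb was farthest, at rank 10690 with 2.90.

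Genes that work beside these were taken from 7 lists, of which 60 genes were tested in hearts. No list gene was called higher or lower by edgeR at an adjusted p under 0.05, where 0.37% and 0.138% of all tested genes were. At an unadjusted p under 0.05 there were 10 of the 60, beside 15.0% of all tested genes. DESeq2 called 2 higher and 5 lower, beside 5.3% and 4.38% of all genes it gave an adjusted p. Without flox replicate 3, edgeR called 2 higher (Slc7a5 and Myh7) and 7 lower (among them Rxrg, Atp2a2, Kcna5, Kcnd2, Pln and Adcy6), where 4.26% and 2.93% of all tested genes were called.

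Among 10 cardiac genes known to be raised by T3, 8 had a log2 fold change below 0, and the median was −0.69, beside 0 over all tested genes. Without flox replicate 3 it was −1.0, and 4 of the 10 were called lower. Scaled by total counts alone, 7 were below 0 with a median of −0.25, beside 0.54 over all genes. Atp2a2, the calcium pump of the sarcoplasmic reticulum, had 3267, 2656 and 3413 CPM in cKO hearts, against 12470, 11660 and 2993 CPM in flox hearts. Flox replicate 3 alone lay within the cKO range, and the adjusted p was 0.319 with it (log2 fold change −1.54 ± 0.63) and 0.0104 without it (−1.95), both by edgeR. Kcnd2, a potassium channel of early repolarisation, had 2.099, 1.88 and 7.48 CPM in cKO hearts, against 25.7, 30.3 and 8.87 CPM in flox hearts, with no overlap. Its log2 fold change was −2.50 ± 0.72 (edgeR adjusted p = 0.175, and 0.0344 without flox replicate 3). Kcna5, another potassium channel, was at −0.88 (0.233, and 0.0376 without that replicate), and the pacemaker channel Hcn2 at −0.77 (0.447, and 0.121). Myh6, the fast myosin, was looked up after its values were seen. It had 11320 ± 2480 CPM in cKO hearts and 16370 ± 11080 CPM in flox hearts (SD, n = 3 each), with an edgeR adjusted p of 0.809, and 0.0890 without flox replicate 3.

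The 5 cardiac genes known to be lowered by T3 did not share a direction. Myh7, the slow myosin, had 8471, 4032 and 3657 CPM in cKO hearts, against 475, 494 and 78.4 CPM in flox hearts. All cKO libraries were above all flox libraries, with a log2 fold change of 3.95 ± 0.85 (edgeR adjusted p = 0.101, and 0.0124 without flox replicate 3, when it was 3.48). Pln, the inhibitor of the calcium pump, had 142, 228 and 239 CPM in cKO hearts, against 865, 909 and 2316 CPM in flox hearts. Here the groups were apart in the other direction, at −2.75 ± 0.56 (edgeR adjusted p = 0.0931, and 0.0108 without flox replicate 3, when it was −2.13). The exchanger Slc8a1 was at −0.92 and the adenylyl cyclase Adcy6 at −0.65, the second called lower only without flox replicate 3 (−1.12, edgeR adjusted p = 0.0362). The list's median was −0.65, and −1.12 without that replicate. The summed level of 7 cardiomyocyte markers was 16100 to 19500 CPM in cKO hearts against 22200 to 54800 CPM in flox hearts, with the highest value in flox replicate 3 and 23360 CPM the next. Only Tnni3 had each cKO library below each flox library, as had 11.2% of all tested genes. No marker was at 0 in all libraries, and the part of these markers in the list values was not tested.

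Of the receptor partners and coregulators, 15 were tested, with a median log2 fold change of −0.02, and −0.34 without flox replicate 3. Rxrg, a retinoid X receptor that pairs with thyroid hormone receptors, had 15.1, 20.7 and 18.7 CPM in cKO hearts, against 57.7, 62.1 and 181 CPM in flox hearts. It was lower in each cKO library, at −2.46 ± 0.53 (edgeR adjusted p = 0.103, and 0.00914 without flox replicate 3, when it was −1.72). Rxrb, Tbl1xr1 and Med1 were at −0.30, 0.36 and −0.36, each with overlapping groups. The adjusted p was at least 0.628 for each of these by edgeR.

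Other thyroid hormone transporters had a median of 0.59 over 7 tested genes, and 0.11 without flox replicate 3. Slc7a5, the light chain of an amino acid carrier that also moves T3 and T4, had 11.8, 9.60 and 10.9 CPM in cKO hearts, against 5.88, 4.61 and 0.960 CPM in flox hearts. The groups did not overlap, and the log2 fold change of 1.49 ± 0.61 had an edgeR adjusted p of 0.323, and of 0.0445 without flox replicate 3, when it was 1.04. Its partner Slc3a2 was at 0.90 ± 0.31 (edgeR adjusted p = 0.242) and Slc7a8, another light chain, at 1.11 ± 0.60 (0.457). Among 11 genes of selenoprotein synthesis and of Dio2 protein turnover the median was −0.17, and none was called with or without flox replicate 3. Pstk, which makes the phosphoseryl precursor of selenocysteine, was at −1.04 (edgeR adjusted p = 0.292), and Wsb1, an adaptor of Dio2 ubiquitination, was at 0.74 (0.447).

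**Figure D3:**
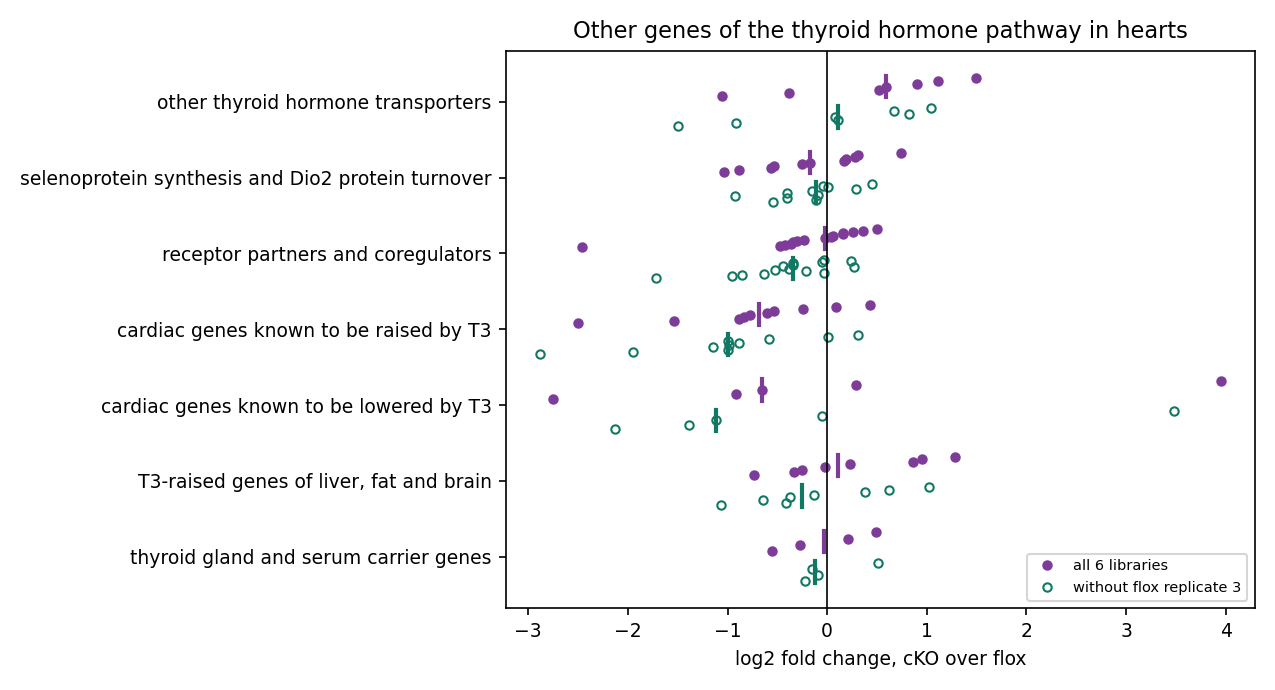
Log2 fold change (cKO over flox) of each tested gene in the 7 pathway lists, with all 6 heart libraries (filled) and without flox replicate 3 (open); vertical bars are list medians. Most cardiac genes known to be raised by T3 lie below 0, and the genes known to be lowered by T3 spread from Pln at −2.75 to Myh7 at 3.95.

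NRVCs were not used to choose the genes, so their values were tested. None of the 5 tested thyroid hormone genes was called by edgeR, with all libraries or without siNC replicate 3, and none by DESeq2. In the edgeR fit to all 6 libraries Thrb alone had an unadjusted p under 0.05, and DESeq2 also put Crym there (DESeq2 adjusted p = 0.272). Over all 15497 tested genes 0.00645% were called higher, which is 1 gene, and 0.0% lower, and without siNC replicate 3 these shares were 0.487% and 0.0823%.

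Thrb had 3.55, 4.81 and 3.75 CPM in the libraries labelled siJmjd4, against 2.63, 2.15 and 2.38 CPM in siNC. All 3 were above the siNC libraries, as were 22.4% of all tested genes. This gave a log2 fold change of 0.76 ± 0.25 (1.69-fold) with an edgeR adjusted p of 0.379, which ranged from 0.112 to 0.680 over the settings tried. With an offset for transcript length the log2 fold change of Thrb was 0.22, and that of Thra went from −0.24 to −0.08. The ratio of Thrb to Thra counts, given next, carries no such offset. There were 3.96, 5.54 and 4.42 Thrb counts per 100 Thra counts in the libraries labelled siJmjd4, against 3.05, 2.31 and 1.84 in siNC. This ratio averaged 4.64 ± 0.813 in the libraries labelled siJmjd4 and 2.40 ± 0.610 in siNC (SD, n = 3 each), a difference of 2.24 (two-sided exact permutation test, p = 0.1, the smallest that 3 against 3 allow).

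Crym had 9.95, 11.2 and 9.77 CPM in the libraries labelled siJmjd4, against 13.8, 11.7 and 23.1 CPM in siNC. They were below the siNC libraries, as were 17.8% of all tested genes, but siJmjd4 replicate 2 and siNC replicate 2 nearly met. Its log2 fold change was −0.65 ± 0.29 (edgeR adjusted p = 0.379), and −0.31 without siNC replicate 3 (0.245). The summed level of 6 measured cardiomyocyte markers was lower as well, at 3750 to 4570 CPM in the libraries labelled siJmjd4 against 4990 to 9760 CPM in siNC, with the highest value in siNC replicate 3 and 5101 CPM the next. Of the 6, 5 were lower in each siJmjd4 library and Ryr2 was higher in each, and their part in the Crym values was not tested.

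The other genes overlapped between the groups. Thra had 89.7, 86.8 and 84.7 CPM in the libraries labelled siJmjd4, against 86.2, 92.9 and 129 CPM in siNC (log2 fold change −0.24, edgeR adjusted p = 0.444). Slc16a10 had 0.821, 1.56 and 1.45 CPM in the libraries labelled siJmjd4, against 0.653, 1.34 and 0.812 CPM in siNC (0.44 ± 0.44, edgeR adjusted p = 0.527). Dio3 was low in both groups, with 17, 20 and 43 counts in the libraries labelled siJmjd4 against 8, 37 and 25 counts in siNC (−0.08 ± 0.72, edgeR adjusted p = 0.949), and its sign varied between settings. Dio1 had 0 counts in all 6 libraries, which allows at most 0.0347 to 0.0566 CPM. Thrsp had 4, 6 and 4 counts in the libraries labelled siJmjd4 and 0, 4 and 0 counts in siNC, too few for the test.

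**Figure D4:**
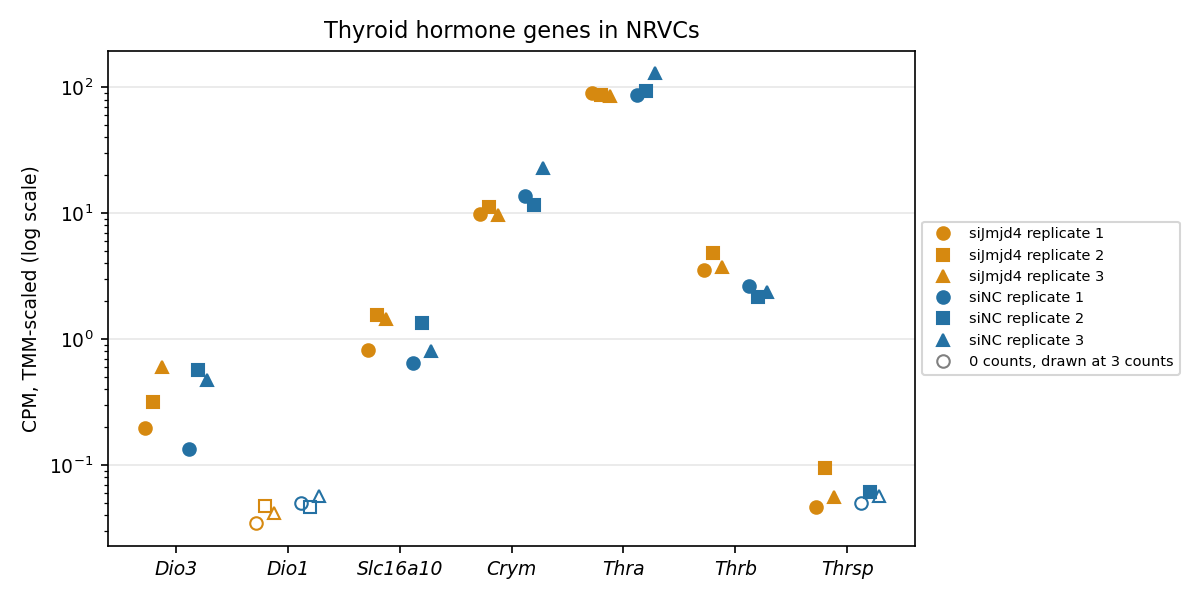
CPM (TMM-scaled, log scale) of the 7 thyroid hormone genes of the rat table in each NRVC library; each symbol is 1 library, and open symbols are libraries with 0 counts drawn at the level of 3 counts. Thrb lies higher and Crym lower in the 3 libraries labelled siJmjd4, and the other genes overlap.

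Of the list genes, 55 were tested in NRVCs. edgeR called none, with 4 of the 55 at an unadjusted p under 0.05, beside 8.71% of all tested genes. DESeq2 called March6 higher and 1 gene lower, beside 0.879% and 0.207% of all genes it gave an adjusted p. March6, a ubiquitin ligase that acts on Dio2 protein, had 34.6, 45.8 and 52.9 CPM in the libraries labelled siJmjd4, against 22.2, 19.9 and 10.4 CPM in siNC. The groups were apart, at 1.35 ± 0.33 (edgeR adjusted p = 0.379, and 0.0490 without siNC replicate 3, when it was 1.08). Without that replicate edgeR also called Med1, a mediator subunit, at 0.85, and Slc8a1 at 0.83 (adjusted p = 0.0489 each). The cardiac genes known to be raised by T3 had a median of 0.09 and those known to be lowered a median of 0.10, beside 0.01 over all tested genes. Hcn2 was at −0.87 ± 0.30 with an edgeR adjusted p of 0.379. The transporters were at a median of 0.16, the selenoprotein and turnover genes at 0.02, and the receptor partners at 0.31, where Ncoa2, a coactivator, was at 1.57 ± 0.67 (edgeR adjusted p = 0.379) and 1.09 (0.0589) without siNC replicate 3.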

How the data were processed

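RNA counts of 12 libraries were used. The authors deposited 1 table of whole-number counts per gene symbol for hearts and 1 for NRVCs, not normalized. The submitters' processing notes list HISAT2 2.1.0, StringTie 1.3.4, edgeR 3.20.9, mm10 and rn6 without saying what each was used for. How reads were counted, and whether by strand, is not stated in the sources.

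Each table was fitted on its own 6 libraries with edgeR 4.0.16 (R 4.3.3; quasi-likelihood, robust, filterByExpr, TMM), with group as the only term, and p-values were adjusted by Benjamini-Hochberg over all tested genes and called under 0.05, two-sided. CPM uses TMM-scaled totals, and a count of 0 is bounded by 3 counts, for counting error only. The SE of a log2 fold change comes from the quasi-likelihood F statistic. P-values measure the spread between these samples, which in NRVCs may be technical. The script was tested on simulated data. Alternatives were DESeq2 1.42.0, other scalings, no filter, an offset for transcript length (GENCODE M21 and RefSeq lengths for 80% of tested heart and 84% of NRVC genes), the replicate number as a term, and leaving out each library.

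The thyroid hormone genes, the 7 lists and the alternatives were chosen with earlier results of these data known. From each list up to 4 tested genes in hearts and 3 in NRVCs with the smallest p were eligible to be named; Med1 in NRVCs was named after its values were seen. Some genes that met this rule are not reported here. Positions and lengths come from GENCODE M21 (GRCm38), which may not be the annotation the counts were made with, and promoters from RefSeq (GRCm38.p6).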

Additional observations from a re-analysis of the deposited data

Results flagged for a closer look

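The genes searched were the 7 thyroid hormone genes and 60 list genes tested in hearts, and the 5 and 55 tested in NRVCs. Among them Thrb, Crym, Bcl3 and Slc3a2 had groups that were fully apart in both systems but in opposite directions. The share of all genes that did so was not computed, so nothing is read from their number. Whether the change differs between hearts and NRVCs was not tested, and the species, age and manipulation differ as well. The log2 fold change of Thrb was −1.58 in hearts and 0.76 in NRVCs, and that of Crym was 1.55 in hearts and −0.65 in NRVCs. Bcl3, a transcriptional coregulator, was at 1.28 in hearts and −0.49 in NRVCs. Slc3a2, the heavy chain of amino acid carriers, was at 0.90 in hearts and −0.21 in NRVCs. Over all tested genes 14.9% lay fully higher and 11.2% fully lower in cKO hearts, and 22.4% fully higher and 17.8% fully lower in the libraries labelled siJmjd4. In NRVCs none of these 4 passed the edgeR test at an adjusted p under 0.05. Without siNC replicate 3 the NRVC values were 0.76 for Thrb, −0.31 for Crym, −0.23 for Bcl3 and −0.07 for Slc3a2. Jmjd4 itself did not pass the test there, with a log2 fold change of 0.25, and −0.16 without that replicate.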

How the results depend on the processing

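The numbers of called genes depended strongly on the setting, and the cause was not tested. In hearts 67 were called higher and 25 lower in the edgeR fit, against 957 and 791 with DESeq2, 525 and 477 with the length offset, 104 and 42 with no filter, and 20 and 0 with total counts alone. Leaving out 1 library gave 0 to 813 higher and 0 to 560 lower, the highest without flox replicate 3 and 0 without each other library. With the replicate block there were 0 and 0, with 1591 at an unadjusted edgeR p under 0.05. Same-numbered heart libraries correlated at 0.51, −0.63 and −0.39 and NRVC libraries at −0.27, 0 and −0.27. These correlations used deviations from the group means, on which a library that stands apart weighs heavily. They cannot decide whether the replicate numbers pair the samples. List genes in hearts were called higher in 0 cases, against 2 with DESeq2, 1 with the length offset and 0 to 2 with a library left out, and lower in 0, against 5, 5 and 0 to 7. In NRVCs 1 gene was called higher, against 136 with DESeq2, 0 with the replicate block and 0 to 77 with a library left out, and 0 lower, against 32 with DESeq2 and 0 to 13. List genes there were 0 higher, against 1 and 0 to 3, and 0 lower, against 1 with DESeq2. Fold changes of the thyroid hormone genes under the alternatives were judged by different rules in hearts and NRVCs. In hearts they were set against the spread between replicates, and 4 moved by more. In NRVCs only the sign and the call were compared, and 7, all of them Dio3, reversed. The other 133 moved by less than the spread in hearts, or kept their sign and stayed uncalled in NRVCs. That NRVC rule does not measure the size of a move: Thrb went from 0.76 to 0.22 with the length offset. The 133 include 4 in which Thrsp in hearts, whose groups overlap, changed sign (its range was −0.79 to 0.52). In hearts Thra was at 0.15 and Crym at 2.14 with total counts alone, Crym ranged from 1.17 to 1.72 and Dio3 from 3.70 to 5.38 with a library left out. Dio3 in NRVCs reversed to 0.19 with the length offset, 0.01 with the replicate block and 0.02 with total counts alone, and ranged from −0.61 to 0.30 with a library left out; its counts of 8 to 43 per library limit it. With the mean transcript length in place of the longest, Dio3 and Dio1 changed places in flox hearts.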

Other observations

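Genes that T3 raises in liver, fat and brain showed no shared direction. In hearts 8 were tested, 4 above and 4 below 0 on the log2 scale, with a median of 0.10, and −0.25 without flox replicate 3. The corepressor Hr was at 0.95 with 26.2, 21.1 and 45.3 CPM in cKO hearts, against 21.7, 18.3 and 7.96 CPM in flox hearts (edgeR adjusted p = 0.421). Klf9, a transcription factor gene known to be induced directly by T3, was at −0.73 (edgeR adjusted p = 0.529). In NRVCs Klf9 had 20.4, 21.3 and 28.4 CPM in the libraries labelled siJmjd4, against 16.6, 13.5 and 5.38 CPM in siNC, with no overlap, at 0.98 ± 0.42 (edgeR adjusted p = 0.379). The NRVC median of that list was 0.04.

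Genes of the thyroid gland and of serum carriers were barely expressed. Only 4 of 10 passed the filter in hearts and 3 in NRVCs, with medians of −0.03 and −0.46. Tg, the hormone precursor protein, had 2.99, 2.01 and 0.894 CPM in cKO hearts, against 1.67, 2.96 and 4.04 CPM in flox hearts, and the groups overlapped.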
